A study of Rattus norvegicus with 47 samples.

Results

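Liver carcinomas were set against liver nodules of chemically treated rats, on arrays made from frozen tissue. The members were chosen by their group label alone: 8 arrays labelled Carcinoma or Carcinoma_bCat and 5 arrays labelled Nodule, together 13 of the 47 arrays of the series. All came from male Wistar rats that received a single dose of the nitrosamine N-nitrosomorpholine (NNM, 250 mg/kg) at an age of 4 weeks, recovered for 3 weeks and then had phenobarbital in their drinking water, 50 mg/kg each day, over at most 17 months. The carcinomas came from 3 animals (numbered 10, 21 and 23 in the titles). Of these, 4 carried a group label that names a beta-catenin mutation and 4 did not. The nodules, called minitumours in the source names, came from 3 animals (10, 11 and 14), so animal 10 alone gave both kinds of lesion. Each lesion is labelled with a control set, and each set holds 1 array of the liver around the lesions, which shared both treatments. The carcinomas belonged to 3 sets and the nodules to 3 others, and no set held both. No untreated liver entered these comparisons. The labels do not say what else separated the 2 kinds of set.

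In rodent liver, a nitrosamine damages the DNA of hepatocytes, and phenobarbital, which acts through the nuclear receptor CAR, favours the outgrowth of altered cells into foci, nodules, adenomas and carcinomas. Rodent tumours grown under phenobarbital often carry an activating beta-catenin mutation. In healthy liver, beta-catenin signalling keeps the programme of the hepatocytes around the central vein (glutamine synthetase, Glul, is its best known target there) and holds back the periportal one, which includes gluconeogenesis and the urea cycle. Many hepatic cytochromes P450 and sulfotransferases are set by the pattern of growth hormone release and differ between male and female rats.

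The deposited values are log2 probe set values, so a difference of 1 is a doubling, and 1 probe set with the highest mean stood for each of 14217 genes. Medians of the arrays lay between 5.49 and 5.59, and each array correlated with the others at a mean r of 0.966 to 0.979, so no array stood apart in level. The 7 measured hepatocyte identity markers (Alb, Ttr, Apoa1, Apob, Apoc3, Ahsg and Hnf4a) lay at or above 11.28 in every carcinoma and 11.45 in every nodule. Albumin (Alb) lay between 14.95 and 15.06 in carcinomas and between 15.05 and 15.10 in nodules, and the hepatocyte factor Hnf4a between 11.28 and 11.85 in carcinomas and between 11.45 and 11.87 in nodules. The mutation label went against beta-catenin target levels in 3 of the 8 carcinomas. The library labelled Carcinoma_bCat replicate 1 had Glul at 9.26 and Axin2, a feedback inhibitor of the pathway, at 5.71, and its source name carries no mutation. The other 3 arrays labelled Carcinoma_bCat had Glul between 12.96 and 13.32. The libraries labelled Carcinoma replicates 1 and 3 had Glul at 13.02 and 12.69 and Axin2 at 7.68 and 7.48. Nodules had Glul at 10.48, 9.17, 9.63, 10.54 and 9.91. Between the 2 carcinoma labels, limma called 0 of 14217 genes at a Benjamini-Hochberg adjusted p under 0.05, with 713 at an unadjusted p under 0.05, and up to 4 were called when a single array was left out (4 without Carcinoma_bCat replicate 2). With 4 arrays for each label, this does not show that the labelled and unlabelled carcinomas are alike. The carcinomas are treated as 1 group because their rule asks for it.

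Many genes passed the test when carcinomas were compared plainly with nodules, and very few did once the surrounding liver of each control set was subtracted. In the plain fit (8 carcinomas against 5 nodules), 1109 genes were higher and 1889 lower in carcinomas at an adjusted p under 0.05, 21.1% of the genes tested, 7.8% higher and 13.3% lower. Quantile normalization of the arrays turned this split to 1423 higher and 1295 lower. With animal as a random block, where all animals enter the contrast, 1010 were higher and 1719 lower. With animal as a fixed block, where animal 10 alone carries the contrast, 160 were higher and 160 lower. Below, animal as a block means the fixed one unless the random one is named. Of the 52 genes chosen by rule for description that passed the plain fit, all 52 kept their direction in the fixed block. Of them, 13 kept their call: Bex3, Tceal9, Lbp, Acox3, Acadsb, Cyp1a1, Zfp354a, Acsl1, Zbtb41, Ccnd1, Ppara, Pfkl and Zfp36. The 52 were chosen in part for large differences in these same arrays, so these counts do not stand for all plain calls. Nor does the block remove differences between control sets, since the carcinomas and nodules of animal 10 lie in different sets. Lbp, Acox3, Acadsb and Zbtb41 kept their call in the block but lost their difference after subtraction (below). Zfp36, at 0.91 plain, lay between -0.37 and -0.11 after subtraction over its alternative fits. Pfkl, at 1.28 plain, lay between 0.20 and 0.53 there, without a call. In the control-subtracted fit (lesion minus surrounding array of its set, 19 arrays), 0 genes were higher and 4 lower, 0.0281% of the genes tested, with 1233 at an unadjusted p under 0.05. The 4 were Cyp1a1, Zfp354a, Acsl1 and Cyp4a3, and the first 3 also fell in the plain fit. The standard error of a difference was larger after subtraction, by a median of 1.56 times, since it also carries the spread of the surrounding arrays.

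The surrounding livers of the 2 kinds of set differed among themselves. Between 3 surrounding arrays of the carcinoma sets and 3 of the nodule sets, 515 genes were called, 3.62% of the genes tested, 309 of them (2.17%) higher and 206 (1.45%) lower around carcinomas. Leaving out any 1 of the 6 arrays lowered this to between 89 and 239. Of the 2998 plain calls, 2767 (92.3%) had the same sign in the surrounding liver, against 73.5% of all genes. The genes called the same way in lesions and in surrounding liver numbered 409, which is 79.4% of the surrounding calls and 13.6% of the plain calls. After subtraction, 2352 of the 2998 plain calls (78.5%) kept their sign, against 63.9% of all genes, and the plain and control-subtracted values of a gene share the same lesion arrays. In the plain comparison alone, lesion type and kind of control set cannot be told apart, so the plain difference of a gene is given beside its control-subtracted one below.

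**Figure D1:**
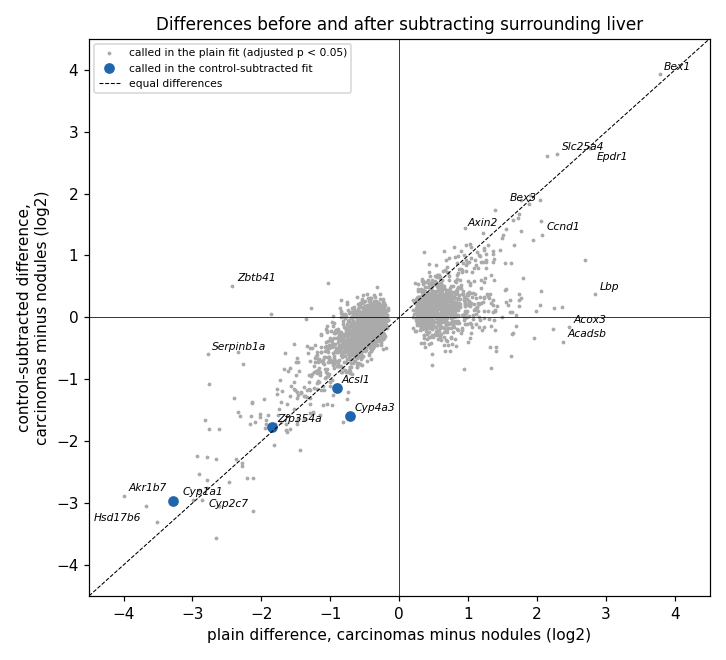
Each grey point is a gene called in the plain fit, with the plain difference, carcinomas minus nodules (log2), on the horizontal axis and the control-subtracted difference (log2) on the vertical axis. The 4 genes called after subtraction are blue, Bex1 and the 4 blue genes lie near the line of equal differences or beyond it, and Lbp, Acox3 and Zbtb41 lie near a subtracted difference of 0.

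Cyp1a1, a cytochrome P450 induced through the aryl hydrocarbon receptor, had the largest fall of the genes called in both fits. Its values in carcinomas ranged between 4.26 and 6.56 with a median of 5.26, against 8.71, 9.43, 7.73, 7.32 and 9.60 in nodules. The groups did not overlap. Surrounding liver was at 9.77, 8.71 and 8.72 around carcinomas and at 9.78, 9.04 and 9.37 around nodules, as high as the higher nodules. The plain difference was -3.28 ± 0.41 (SE), 9.68-fold lower in carcinomas (adjusted p = 0.000134), and the control-subtracted one -2.96 ± 0.45 (adjusted p = 0.0387). Below their own surrounding liver, carcinomas stood at -4.55 to -3.21 and nodules at -1.72 to 0.23. Of the 8 measured genes of the aryl hydrocarbon receptor battery, Cyp1a1 and Tiparp fell and Ahr, the receptor itself, rose in the plain fit, where 13.3% of all genes fell and 7.8% rose. The Ahr difference was 2.05 ± 0.37 plain (adjusted p = 0.00182) and 0.43 ± 0.37 after subtraction (adjusted p = 0.795).

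Zfp354a, which encodes a zinc finger protein, fell in every carcinoma to nearly the same level. Carcinomas lay between 6.96 and 7.44 with a median of 7.08, against 8.29, 8.36, 8.99, 8.91 and 10.27 in nodules. Again no carcinoma reached the lowest nodule. The plain difference was -1.84 ± 0.26 (adjusted p = 0.000328) and the control-subtracted one -1.77 ± 0.14 (adjusted p = 5.55e-05). Relative to surrounding liver, carcinomas stood at -2.45 to -1.97 and nodules at -0.54 to -0.34. It was the only one of the 4 genes to stay called when any 1 of the 19 arrays was left out, with adjusted p between 8.54e-06 and 0.000993, and the highest adjusted p over all its alternatives was 0.665.

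Acsl1, which activates long-chain fatty acids to their CoA esters, and Cyp4a3, a fatty acid hydroxylase of the peroxisome proliferator response in rat liver, made up the rest. Acsl1 lay between 11.28 and 11.94 with a median of 11.70 in carcinomas, against 12.63, 12.47, 12.60, 12.32 and 12.78 in nodules. The Acsl1 difference was -0.91 ± 0.11 plain (adjusted p = 0.000111) and -1.14 ± 0.17 after subtraction (adjusted p = 0.0387). Cyp4a3 overlapped in the plain values, with carcinomas between 8.003 and 9.60 (median 8.74) and nodules at 9.13, 9.47, 9.82, 9.31 and 10.16. Below surrounding liver the Cyp4a3 groups separated, at -2.57 to -1.79 in carcinomas and -0.71 to -0.06 in nodules. The Cyp4a3 difference was -0.71 ± 0.27 plain (adjusted p = 0.075) and -1.59 ± 0.22 after subtraction (adjusted p = 0.0306). The subtracted calls of these genes were fragile: with 1 of 19 arrays left out, Cyp1a1 stayed called in 6 of the fits, Acsl1 in 4 and Cyp4a3 in 8, with adjusted p up to 0.28, 0.28 and 0.204. Their control-subtracted differences stayed between -3.40 and -2.60, between -1.24 and -1.05 and between -1.67 and -1.49 in those fits. Within animal 10 alone, the control-subtracted difference was -3.17 for Cyp1a1, -1.53 for Zfp354a, -1.25 for Acsl1 and -1.67 for Cyp4a3.

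The largest rise was that of Bex1. The Bex and Tceal genes are small X-linked relatives of a transcription elongation factor, and Bex1 is best known from the nervous system. Bex1 lay between 8.86 and 12.68 with a median of 11.82 in carcinomas, against 7.77, 5.71, 6.89, 8.52 and 8.72 in nodules. Every carcinoma lay above every nodule, by little in the lowest, Carcinoma replicate 2 at 8.86 and Carcinoma_bCat replicate 1 at 9.27. Surrounding liver was at 3.89, 7.91 and 4.18 around carcinomas and at 4.81, 6.55 and 5.65 around nodules. The plain difference was 3.78 ± 0.72 (13.7-fold, adjusted p = 0.00265) and the control-subtracted one 3.93 ± 1.39 (adjusted p = 0.479). With animal as a block the Bex1 difference was 4.18 and lost its call (adjusted p = 0.14, against 0.000935 to 0.00978 with 1 array left out). With animal as a random block it was 3.76 and kept its call (adjusted p = 0.00388).

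Bex3 and Tceal9 rose with much less spread than Bex1. Bex3, an adaptor of the neurotrophin receptor p75, lay between 10.71 and 11.71 with a median of 11.24 in carcinomas, against 9.59, 9.44, 9.30, 9.50 and 9.59 in nodules. Its plain difference was 1.74 ± 0.16 (adjusted p = 9.8e-06) and its control-subtracted one 1.68 ± 0.35 (adjusted p = 0.164). Tceal9 lay between 11.59 and 12.68 in carcinomas (median 12.14) and at 10.55, 10.05, 10.12, 10.75 and 10.77 in nodules. The Tceal9 difference was 1.72 ± 0.19 plain (adjusted p = 6.9e-05) and 1.61 ± 0.42 after subtraction (adjusted p = 0.325). Nodules in turn stood above their surrounding liver by 0.93 to 1.72 for Bex3 and by 0.55 to 1.88 for Tceal9, and carcinomas by 1.69 to 3.85 and by 1.41 to 3.63. The subtracted ranges therefore overlapped slightly, with 7 of 8 carcinomas above all nodules for each gene. Without Carcinoma replicate 2, the lowest carcinoma for Bex3, its subtracted difference was 1.80 and passed (adjusted p = 0.0185, beside a range of 0.0185 to 0.606 over its alternatives). Both genes kept their plain call with animal as a block, at differences of 1.62 (adjusted p = 0.0324) and 1.79 (adjusted p = 0.0414). Of the 8 measured genes of the family, 4 rose in the plain fit (Bex1, Bex3, Tceal8 and Tceal9), where 7.8% of all genes rose, and 0 after subtraction. All 8 were above 0 in both versions, with a median of 1.07 plain and 1.06 after subtraction, beside medians of -0.07 and 0.03 over all genes.

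**Figure D2:**
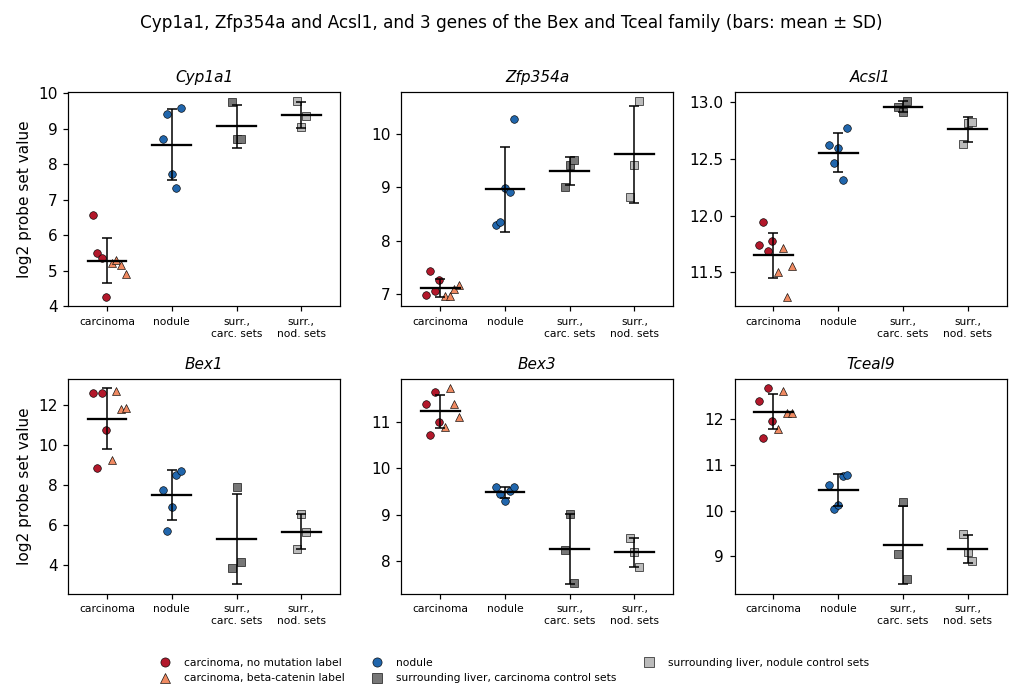
Log2 probe set values of Cyp1a1, Zfp354a, Acsl1, Bex1, Bex3 and Tceal9 in 8 carcinomas (circles without, triangles with the mutation label), 5 nodules and the surrounding liver of 3 carcinoma and 3 nodule sets, with bars for mean ± SD. In all 6 genes the carcinomas and nodules do not overlap, and for Cyp1a1, Zfp354a and Acsl1 the nodules lie nearer to surrounding liver than the carcinomas do.

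Other genes that rose in carcinomas by a similar amount in both versions were uneven among the carcinomas. Epdr1, an ependymin-related secreted protein, was at 3.86 in Carcinoma_bCat replicate 1 and between 6.87 and 9.004 in the other 7 carcinomas, against 5.15, 4.02, 4.91, 5.08 and 5.00 in nodules. Its plain difference was 2.77 ± 0.68 (adjusted p = 0.0108) and its subtracted one 2.73 ± 0.98 (adjusted p = 0.482). Slc25a4, the mitochondrial ADP/ATP carrier of heart and muscle, was at 7.88 in Carcinoma replicate 2 and between 11.00 and 11.86 in the other carcinomas, against 9.04, 8.06, 8.43, 9.66 and 8.63 in nodules. The Slc25a4 difference was 2.29 ± 0.57 plain (adjusted p = 0.0115) and 2.64 ± 0.96 after subtraction (adjusted p = 0.482), and 3.09 (adjusted p = 0.0151) when Carcinoma replicate 2 was left out, the setting among its 19 single-array omissions that called it. Bcas1 was the most even of this group, with carcinomas between 5.56 and 8.72 (median 6.78) all above nodules at 4.30, 4.78, 4.81, 4.89 and 5.14, and differences of 2.04 ± 0.43 (adjusted p = 0.00504) and 1.89 ± 0.68 (adjusted p = 0.482). Rragd, a Rag GTPase that signals amino acid supply to mTORC1, reached 8.399 in Carcinoma_bCat replicate 3, but was at 4.05 in Carcinoma_bCat replicate 1 and 4.16 in Carcinoma replicate 2, inside the nodule range of 3.78 to 4.64. Its plain difference was 2.14 ± 0.71 (adjusted p = 0.0452) and its subtracted one 2.60 ± 1.14 (adjusted p = 0.547). Pcp4l1, Blnk (a B cell adaptor protein) and Thada had plain differences of 1.89, 1.88 and 1.76 and subtracted ones of 1.98, 1.83 and 1.90. The plain calls of these 7 genes were lost with animal as a block, at adjusted p of 0.152 to 0.599. With animal as a random block, Rragd lost its call (adjusted p = 0.0639) and the others kept theirs, at adjusted p of 0.00641 to 0.0393. With each of the 13 lesion arrays left out in turn, Rragd stayed called in 3 fits and Pcp4l1 in 8, with adjusted p up to 0.0921 and 0.0752.

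Of the Wnt/beta-catenin targets and pericentral genes, 3 of 17 measured rose in the plain fit, Ccnd1, Axin2 and Znrf3, and 0 fell, where 7.8% and 13.3% of all genes rose and fell. The median of the list was 0.58 plain and 0.59 after subtraction, and 0 of 17 passed after subtraction. Cyclin D1 (Ccnd1), which drives entry into the cell cycle, lay between 9.89 and 10.86 in carcinomas (median 10.37), against 7.39, 7.44, 8.63, 9.28 and 8.80 in nodules, without overlap. Its plain difference of 2.07 ± 0.30 (adjusted p = 0.000415) stayed called with animal as a block (2.66, adjusted p = 0.00309). After subtraction the Ccnd1 difference was 1.33 ± 0.32 (adjusted p = 0.236). Glul itself averaged 11.81 ± 1.76 in carcinomas and 9.95 ± 0.58 in nodules (SD, n = 8 and 5). Its difference was 1.505 ± 1.243 after subtraction (adjusted p = 0.79). Its plain difference of 1.87 ± 0.73 did not pass (adjusted p = 0.0865), but passed in 5 of 24 alternatives. These included leaving out Carcinoma replicate 2 (adjusted p = 0.0378) or Carcinoma_bCat replicate 1 (adjusted p = 0.0226), the arrays with the lowest carcinoma values. The others were the mean of all probe sets (2.43, adjusted p = 0.0232), all 26 frozen arrays (adjusted p = 0.0228) and 1 value per control set (adjusted p = 0.0161). With animal as a block the Glul difference was 1.31 (adjusted p = 0.662). The Glul probe sets not used had plain differences of 3.14 and 2.28.

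Axin2 lay between 5.12 and 8.05 in carcinomas (median 7.58), against 5.19, 5.07, 5.495, 5.69 and 5.12 in nodules, and 7 of 8 carcinomas were above all nodules. The Axin2 difference was 1.66 ± 0.49 plain (adjusted p = 0.0285) and 1.58 ± 0.85 after subtraction (adjusted p = 0.648). Axin2 is transcribed in response to beta-catenin with TCF/LEF factors, so its promoter is shown from RefSeq (GRCr8, chr10:94398535-94398784, plus strand, the 250 bases before the annotated start). Capitals mark the core CTTTGA of the TCF/LEF motif, searched on both strands, which lies 232 and 132 bases before the start.
Axin2 promoter: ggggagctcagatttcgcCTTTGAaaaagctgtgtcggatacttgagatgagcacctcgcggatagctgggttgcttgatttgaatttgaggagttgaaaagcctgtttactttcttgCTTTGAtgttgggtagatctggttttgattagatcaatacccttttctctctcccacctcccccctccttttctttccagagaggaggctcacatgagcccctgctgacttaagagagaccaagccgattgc
The same 6 letters occur in 3782 of 27457 RefSeq promoter windows (13.8%), so their presence here is a description of the sequence. Of the 3 called genes of the list, only Axin2 had an entry among the promoter sequences used. The promoters of Ccnd1 and Znrf3 were not examined.

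Genes of several hepatocyte functions fell in carcinomas in the plain fit, periportal genes among them. Of 15 measured periportal genes, 7 fell in the plain fit and 0 rose, where 13.3% and 7.8% of all genes did so, and all 15 were below 0 after subtraction, with 0 calls. Their median was -1.02 plain and -0.77 after subtraction. Gls2, the liver glutaminase, lay between 5.75 and 10.59 in carcinomas (median 7.46), against 10.06, 10.78, 10.69, 9.71 and 11.30 in nodules, and 7 of 8 carcinomas were below all nodules. The exception was Carcinoma_bCat replicate 1 at 10.59. The Gls2 difference was -2.90 ± 0.66 plain (adjusted p = 0.00741) and -2.53 ± 0.97 after subtraction (adjusted p = 0.491). Pck1, the key enzyme of gluconeogenesis, followed the same order, with Carcinoma_bCat replicate 1 highest at 12.57 and Carcinoma_bCat replicate 2 lowest at 5.45, against nodules between 11.82 and 13.37. Its difference was -2.91 ± 0.97 plain (adjusted p = 0.0472) and -2.78 ± 1.32 after subtraction (adjusted p = 0.582), and -0.37 plain and -0.74 after subtraction within animal 10. The others that fell were Hal and Sds, which degrade histidine and serine, and Otc, Asl and Arg1 of the urea cycle, by plain differences of -2.34 for Hal, -2.16 for Sds, -1.19 for Otc, -0.81 for Asl and -0.90 for Arg1. Their control-subtracted differences were -1.53 for Hal, -1.72 for Sds, -1.07 for Otc, -0.11 for Asl and -0.76 for Arg1, at adjusted p of 0.502 to 0.964.

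The named genes that fell in the plain fit also held 3 catabolic enzymes outside that list, Hsd17b6, Aass and Tdo2. Hsd17b6, which converts androgen metabolites, lay between 4.19 and 10.36 in carcinomas (median 8.28), against 10.95, 11.07, 11.87, 11.42 and 10.93 in nodules, with no overlap before or after subtraction. Its plain difference was -3.67 ± 0.85 (adjusted p = 0.00792) and its subtracted one -3.04 ± 1.19 (adjusted p = 0.496). Aass, the first enzyme of lysine breakdown, lay between 4.24 and 10.98 in carcinomas (median 7.00) and between 10.50 and 11.45 in nodules, with differences of -3.52 ± 1.06 (adjusted p = 0.0302) and -3.31 ± 1.45 (adjusted p = 0.547). Tdo2, the first enzyme of tryptophan breakdown, lay between 6.69 and 13.42 in carcinomas and at or above 12.43 in nodules, with differences of -2.99 ± 0.92 (adjusted p = 0.0329) and -2.95 ± 1.19 (adjusted p = 0.512). In both Aass and Tdo2, Carcinoma_bCat replicate 1 was the highest carcinoma and lay inside or above the nodule range. Car3, a carbonic anhydrase abundant in male rat liver, was at 4.46 in that same array and between 6.67 and 8.09 in the other carcinomas, against 9.48, 7.50, 10.84, 10.06 and 11.86 in nodules, with differences of -2.79 ± 0.70 (adjusted p = 0.0122) and -2.75 ± 0.88 (adjusted p = 0.438). With animal as a block, the difference was -1.29 for Hsd17b6, -0.99 for Aass, -0.25 for Tdo2 and -2.38 for Car3, and none of these 4 kept the plain call (adjusted p between 0.212 and 0.928). With animal as a random block all 4 kept it, at adjusted p of 0.0121 to 0.0496. With each of the 13 lesion arrays left out in turn, Aass stayed called in 6 fits, Tdo2 in 6, and Pck1 in 3, with adjusted p up to 0.0615, 0.0651 and 0.102.

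The genes set by growth hormone release had negative medians in the female-predominant and in the male-predominant list. Of the 6 measured female-predominant genes, 5 fell in the plain fit, Cyp2c7, Akr1b7, A1bg, Prlr and Sult2a1, where 13.3% of all genes fell. The list had medians of -2.08 plain and -1.17 after subtraction and 0 calls after subtraction. Cyp2c7 lay between 7.51 and 12.90 in carcinomas (median 10.94), against 13.35, 13.27, 13.58, 13.44 and 13.33 in nodules, so that the nodules were nearly uniform and every carcinoma lay below them. Its plain difference was -2.86 ± 0.81 (adjusted p = 0.022) and its subtracted one -2.96 ± 1.04 (adjusted p = 0.473). The plain call of Cyp2c7 was lost without Nodule replicate 3 (adjusted p = 0.0512). The prolactin receptor Prlr lay between 6.94 and 8.87 in carcinomas and at 9.64, 9.96, 10.31, 9.55 and 9.12 in nodules, with differences of -1.91 ± 0.28 (adjusted p = 0.000413) and -1.57 ± 0.39 (adjusted p = 0.273), and the groups did not overlap in either version. Akr1b7 lay between 3.44 and 8.67 in carcinomas and at 10.90, 10.94, 10.93 and 10.43 in 4 nodules, but at 7.18 in Nodule replicate 5. Its surrounding liver was as low in that nodule's set, at 7.25, and in the set of animal 23, at 7.51, as against 10.60 to 11.61 in the other 4 sets. After subtraction the Akr1b7 groups separated, at -5.61 to -1.56 in carcinomas and -1.18 to -0.07 in nodules, with a difference of -2.88 ± 0.79 (adjusted p = 0.338), beside -3.99 ± 0.95 plain (adjusted p = 0.00939).

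All 8 measured male-predominant genes were below 0 in both versions, with a median of -1.22 plain and -1.71 after subtraction, but 0 passed in either fit. Cyp2c11, the main male-specific cytochrome P450 of rat liver, lay between 8.56 and 12.10 in carcinomas (median 9.68), against 11.78, 10.64, 11.76, 11.15 and 12.99 in nodules. Of the carcinomas, 5 lay below every nodule and 3 within the nodule range. The difference was -1.54 ± 0.62 plain (adjusted p = 0.0921) and -2.23 ± 0.93 after subtraction (adjusted p = 0.525), and the plain one passed without Carcinoma replicate 1 (-1.82, adjusted p = 0.0386, beside a range of 0.0386 to 0.697 over its alternatives). Obp3, a male-specific secreted carrier protein, was at 11.99 in Nodule replicate 5 and between 4.23 and 5.53 in the other nodules, against 3.67 to 5.55 in carcinomas. The surrounding array of that nodule's set was also high, at 12.69, and after subtraction the groups did not overlap, at -8.51 to -3.13 in carcinomas and -1.57 to -0.18 in nodules (difference -4.28 ± 0.88, adjusted p = 0.163). The carcinomas and the other nodules lay in or below the range of the array medians (5.49 to 5.59). Their subtracted Obp3 values therefore depend strongly on the surrounding arrays, which averaged 9.52 around carcinomas and 8.37 around nodules (difference 1.14 ± 1.90, adjusted p = 0.753). The plain Obp3 difference was -2.15 ± 0.98 (adjusted p = 0.139), and -0.77 without Nodule replicate 5. Cyp2a2 spread widely over the carcinomas, between 6.22 and 11.73, on both sides of the nodules at 10.33 to 11.19. The Cyp2a2 difference was -1.81 ± 0.82 plain (adjusted p = 0.134) and -1.72 ± 0.89 after subtraction (adjusted p = 0.634), where it was -0.88 without Surrounding replicate 5.

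Among genes of bile acid handling, Slc10a1 and Slc27a5 had the largest plain falls. Slc10a1, the sodium-dependent importer of bile acids, lay between 8.84 and 10.88 in carcinomas (median 10.39), against 11.76, 11.70, 11.71, 11.39 and 11.69 in nodules, with no overlap in either version. Its difference was -1.49 ± 0.29 plain (adjusted p = 0.00322) and -1.68 ± 0.44 after subtraction (adjusted p = 0.318), and it was called after subtraction without Carcinoma replicate 2 (-1.86, adjusted p = 0.0246). Slc27a5, which activates bile acids, lay between 6.85 and 10.97 in carcinomas and at 11.85, 11.29, 12.55, 12.50 and 11.59 in nodules, with differences of -2.94 ± 0.55 (adjusted p = 0.00225) and -2.25 ± 0.87 (adjusted p = 0.491). Of 18 genes of bile acid synthesis and transport, 4 fell and 1 rose in the plain fit, near the 13.3% and 7.8% of all genes, with a median of -0.25 plain and -0.23 after subtraction. The transcription factor Onecut1 (HNF6) lay between 5.05 and 8.17 in carcinomas (median 6.76), against 8.83, 9.04, 9.95, 9.52 and 9.93 in nodules. The Onecut1 difference was -2.82 ± 0.46 plain (adjusted p = 0.000914) and -1.66 ± 0.50 after subtraction (adjusted p = 0.397). Of 15 measured plasma protein and transcription factor genes, Onecut1, Foxa1 and the bile acid receptor Nr1h4 fell and Cebpa rose, counts near the 13.3% and 7.8% of all genes. Cebpa, by contrast with its plain rise of 0.47 (adjusted p = 0.00984), was lower in carcinomas after subtraction, at -0.77 ± 0.19 (adjusted p = 0.273), as the liver around carcinomas stood 1.25 above that around nodules.

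**Figure D3:**
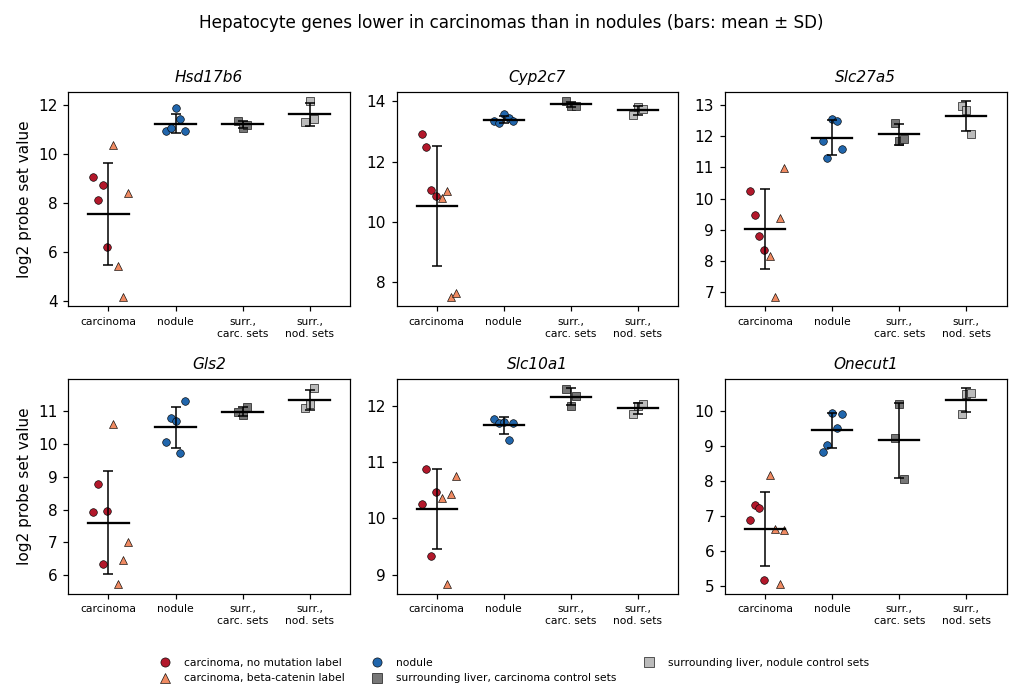
Log2 probe set values of Hsd17b6, Cyp2c7, Slc27a5, Gls2, Slc10a1 and Onecut1 in 8 carcinomas, 5 nodules and the surrounding liver of 3 carcinoma and 3 nodule sets, with bars for mean ± SD. Carcinomas are lower than nodules and more spread, with Carcinoma_bCat replicate 1 at 10.59 for Gls2 inside the nodule range. Relative to their surrounding liver, nodules average -0.30 for Cyp2c7, -0.42 for Hsd17b6 and -0.76 for Gls2. Part of the plain gap of Onecut1 and Slc27a5 was lost after subtraction.

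A further group of genes with large plain differences lost them after subtraction. Lbp, the lipopolysaccharide-binding protein, lay between 10.18 and 11.31 in carcinomas (median 10.86), against 8.42, 7.82, 7.92, 8.12 and 7.61 in nodules. Surrounding liver showed the same gap, at 10.82, 10.46 and 10.53 around carcinomas and at 8.38, 7.75 and 8.18 around nodules. The Lbp difference was therefore 2.84 ± 0.19 plain (adjusted p = 4.85e-07) and 0.37 ± 0.33 after subtraction (adjusted p = 0.805). Acox3, a peroxisomal oxidase of branched fatty acids, lay between 7.34 and 7.86 in carcinomas and at 5.47, 4.89, 5.23, 4.51 and 5.58 in nodules, with differences of 2.47 ± 0.17 (adjusted p = 6.32e-07) and -0.16 ± 0.26 (adjusted p = 0.918). Zbtb41, a zinc finger protein, lay between 3.28 and 4.10 in carcinomas and at 5.83, 6.14, 5.88, 6.16 and 6.18 in nodules, with differences of -2.42 ± 0.12 (adjusted p = 5.41e-08) and 0.51 ± 0.19 (adjusted p = 0.482). Acadsb, an enzyme of branched-chain acyl-CoA breakdown, had differences of 2.37 plain and -0.39 after subtraction, and Serpinb1a, a protease inhibitor, of -2.78 and -0.60. The neutrophil gene S100a8 had differences of -2.34 plain and -0.56 after subtraction, and its high plain values were those of Nodule replicates 3 and 4 at 8.70 and 9.51, whose set's surrounding array was at 9.35. The plain call of S100a8 was lost without Nodule replicate 3 (-1.92, adjusted p = 0.0834) and without Nodule replicate 4 (-1.72, adjusted p = 0.0644).

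Animal 10 gave 1 surrounding array to each kind of set, and for Lbp, Acox3 and Zbtb41 these 2 arrays differed like the sets did. In the array of its carcinoma set, Lbp was at 10.82, Acox3 at 8.02 and Zbtb41 at 3.46. In the array of its nodule set, Lbp was at 8.38, Acox3 at 5.46 and Zbtb41 at 6.42. The gap between the sets was thus as large within this animal as between animals for these 3 genes, and what separated the arrays was not tested. They were chosen because subtraction removed their plain difference, in data that hold these 2 arrays. Within animal 10, Acadsb differed by 2.17 plain and 0.13 after subtraction. Serpinb1a, at -1.89 between the surrounding livers of the sets, differed there by -1.81 plain and still by -1.31 after subtraction. S100a8, at -1.22 between those livers, differed there by -0.39 and 0.007.

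**Figure D4:**
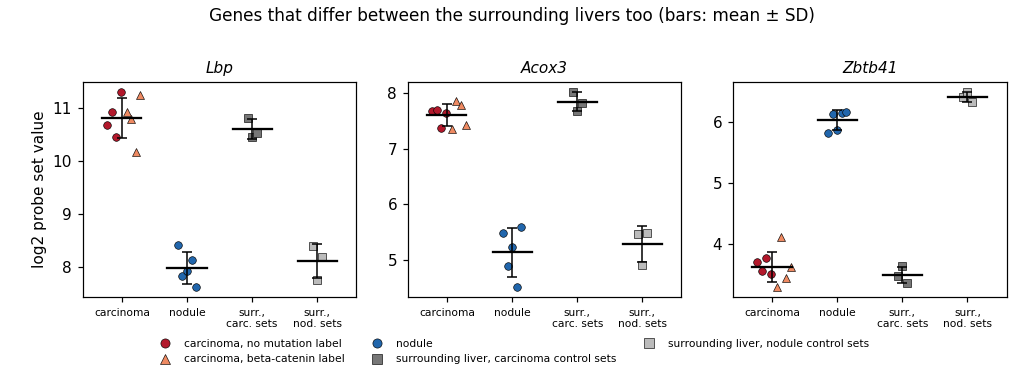
Log2 probe set values of Lbp, Acox3 and Zbtb41 in 8 carcinomas, 5 nodules and the surrounding liver of 3 carcinoma and 3 nodule sets, with bars for mean ± SD. Each lesion lies at the level of the surrounding liver of its own kind of set, with carcinomas and their surrounding liver high for Lbp and Acox3 and low for Zbtb41.

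Slc7a11, the cystine importer regulated by NRF2 and ATF4, lay between 7.01 and 10.29 in carcinomas (median 9.62), against 9.03, 8.13, 8.05, 7.65 and 8.93 in nodules. The lowest carcinoma was Carcinoma_bCat replicate 4, below every nodule. Its difference was 0.89 ± 0.48 plain (adjusted p = 0.205) and 0.85 ± 0.64 after subtraction (adjusted p = 0.772), and the plain one passed without that array (1.22, adjusted p = 0.0197, beside a range of 0.0164 to 0.675 over its alternatives). With 1 array left out, the subtracted difference ranged between 0.32, without Surrounding replicate 2, and 1.45, without Surrounding replicate 5. Both lesion types stood above their surrounding liver for Slc7a11, by 1.98 to 4.495 in carcinomas and by 1.55 to 3.61 in nodules. Of 21 measured ATF4 and amino acid response genes, 6 rose and 1 fell in the plain fit, where 7.8% and 13.3% of all genes did so, with Shmt2, Mthfd2, Atf4, Atf5, Slc7a5 and Slc3a2 among the rises and Psph the fall. Of 18 NRF2 targets, 4 rose and 0 fell, against the same shares, and the 4 were Gclm, Akr7a3, Ugdh and Ephx1. After subtraction both lists had 0 calls. Their medians were 0.50 plain and 0.42 after subtraction for the ATF4 list and 0.48 and 0.27 for the NRF2 list. Gclm had differences of 1.01 ± 0.24 plain (adjusted p = 0.00981) and 0.24 ± 0.33 after subtraction (adjusted p = 0.894). Ephx1, also a phenobarbital-responsive gene, had a plain difference of 0.67 (adjusted p = 0.000202) and one of -0.01 after subtraction. The phenobarbital-responsive genes, of which 6 of 16 rose and 1 fell beside 7.8% and 13.3% of all genes, had a median of 0.21 plain and -0.03 after subtraction. Nr1i3, which encodes the receptor CAR, lay between 9.24 and 10.22 in carcinomas, against 9.0, 8.81, 8.16, 8.12 and 8.69 in nodules, with differences of 1.06 ± 0.20 (adjusted p = 0.00216) and 0.74 ± 0.26 (adjusted p = 0.473), and did not overlap in either version.

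Acute phase genes split by direction. In the plain fit, 7 of 18 fell (Fga, Fgb, Fgg, Itih3, Itih4, Apcs and Il6r) and 4 rose (Crp, Lbp, Hpx and Socs3), where 13.3% of all genes fell and 7.8% rose, and after subtraction 16 of 18 were below 0. The fibrinogen chain Fgb lay between 11.80 and 13.57 in carcinomas, against 13.87, 13.87, 13.78, 13.64 and 13.74 in nodules, with differences of -1.17 ± 0.26 (adjusted p = 0.00604) and -1.04 ± 0.36 (adjusted p = 0.466). The interleukin 6 receptor Il6r had differences of -1.004 ± 0.20 (adjusted p = 0.0037) and -1.04 ± 0.30 (adjusted p = 0.376), and like Fgb did not overlap in either version. Of the genes that rose, Crp had a plain difference of 0.74 and a subtracted one of -0.54. Ehhadh, a peroxisomal enzyme of fatty acid oxidation, differed by -0.76 ± 0.20 plain (adjusted p = 0.0165) and by -1.32 ± 0.34 after subtraction (adjusted p = 0.308). Of 16 genes of cholesterol synthesis and uptake, 6 fell and 1 rose, beside the same shares of all genes, with medians of -0.38 in both versions. Of 15 glycolysis genes, Pfkl, Aldoa, Eno1 and Ldha rose, beside 7.8% of all genes, and 0 fell, and their list median was 0.12 plain and 0.07 after subtraction. In the plain fit, beside 7.8% rising and 13.3% falling over all genes, calls were made in fatty acid synthesis (1 of 15 rose and 1 fell), antigen presentation (1 of 13 rose and 1 fell), fatty acid oxidation and ketone synthesis (2 of 15 rose and 2 fell) and immediate early genes (2 of 16 rose and 0 fell).

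Of the 27 measured genes of the cell division and DNA replication list, which does not hold Ccnd1, 0 passed in either fit, with medians of 0.00 plain and 0.37 after subtraction, and 24 of the 27 were above 0 after subtraction. Mki67 lay between 5.53 and 7.36 in carcinomas, against 6.57, 6.39, 6.54, 6.42 and 4.43 in nodules. Its difference was 0.44 ± 0.37 plain (adjusted p = 0.427) and 0.60 ± 0.44 after subtraction (adjusted p = 0.766). Without Nodule replicate 5, the lowest array, the plain Mki67 difference was 0.03, and the subtracted one ranged over 0.23 to 0.89 with 1 array left out, lowest without Surrounding replicate 7. With animal as a block the plain difference was -0.35. Of the 15 measured cell cycle inhibitors and p53 targets, Cdkn2b, Mdm2 and Phlda3 rose and Cdkn1c fell in the plain fit, where 7.8% and 13.3% of all genes did so, and 0 passed after subtraction. Their list median was 0.07 plain and 0.10 after subtraction. Phlda3 had differences of 0.75 plain and -0.17 after subtraction, and Cdkn1c of -0.64 and -0.59. Cdkn2b lay between 5.57 and 5.92 in carcinomas and between 4.91 and 5.48 in nodules, with differences of 0.66 ± 0.10 (adjusted p = 0.000757) and 0.77 ± 0.16 (adjusted p = 0.163). Of the 15 measured focus and oncofetal markers, Sox4 rose and Igf2bp3 fell in the plain fit, where 7.8% and 13.3% of all genes did so. Gstp1, the classical marker of altered foci in rat liver, was high in both lesion types, between 12.17 and 14.35 in carcinomas and between 13.84 and 14.30 in nodules, and the differences had opposite signs, -0.30 ± 0.29 plain (adjusted p = 0.502) and 0.22 ± 0.56 after subtraction (adjusted p = 0.957). The plain Gstp1 difference was -0.06 without Carcinoma_bCat replicate 4, the lowest carcinoma, and the subtracted one was -0.42 without Surrounding replicate 7. Afp lay between 5.89 and 9.05 in carcinomas and between 8.32 and 8.60 in nodules, with differences of -0.78 ± 0.43 (adjusted p = 0.221) and -0.34 ± 0.69 (adjusted p = 0.94).

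Markers of other cell types moved with some of these groups, and their part in the results was not tested. In bulk tissue, fewer cells of a type and less RNA per cell cannot be told apart. Of 12 macrophage markers, Cd163 and Cd14 fell and 0 rose, where 13.3% of all genes fell and 7.8% rose, all 12 were below 0 after subtraction, and the mean level of the list lay between 7.76 and 8.80 in carcinomas and between 8.57 and 9.003 in nodules. Cd163 lay between 6.05 and 7.50 in carcinomas, against 8.17, 8.16, 8.64, 8.15 and 8.31 in nodules, with differences of -1.61 ± 0.23 (adjusted p = 0.000362) and -0.86 ± 0.35 (adjusted p = 0.508). Of 12 lymphocyte markers 4 fell, of 7 blood cell markers 3 fell, of 13 endothelial markers 1 rose and 1 fell, and of 18 stellate cell and fibroblast markers 1 rose and 1 fell, beside the same shares of all genes. The lymphocyte markers were dim, with a mean level of 4.38 to 4.63 in carcinomas and 4.57 to 4.82 in nodules, below the array medians (5.49 to 5.59). Of 10 cholangiocyte markers 0 passed, and Krt19 lay between 3.83 and 9.72 in carcinomas and between 7.31 and 10.60 in nodules. No list of other cell types had a call after subtraction.

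**Figure D5:**
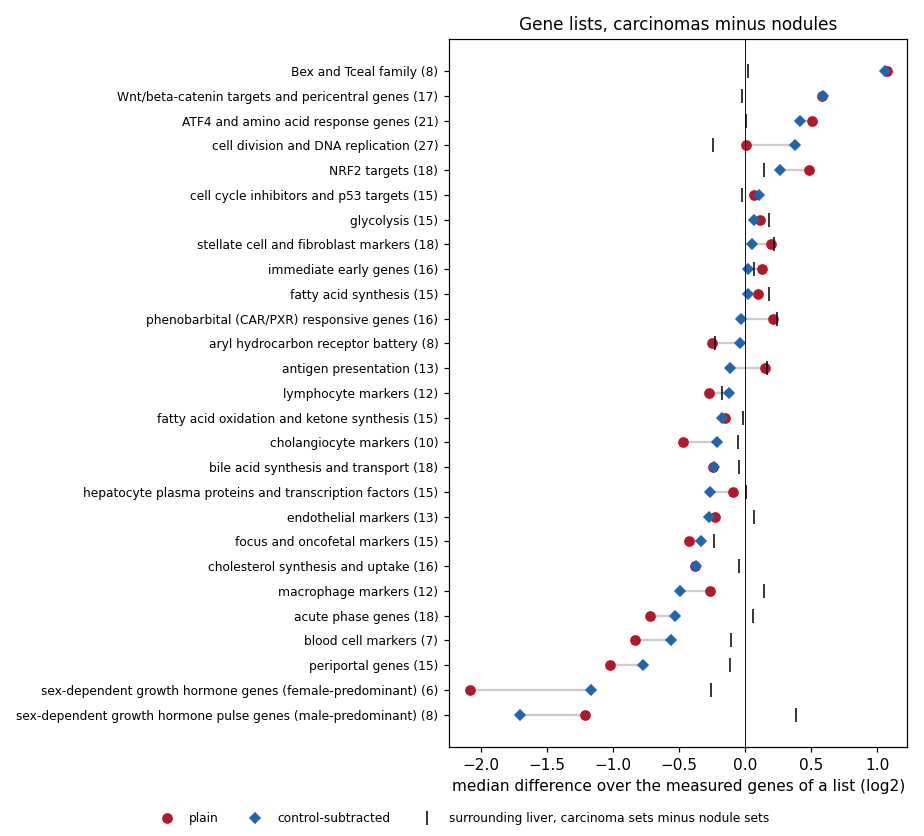
Median log2 difference, carcinomas minus nodules, over the measured genes of each list (number in brackets), plain (circles) and control-subtracted (diamonds), with the difference between surrounding livers of carcinoma sets and nodule sets as black ticks. The Bex and Tceal family lies highest, at 1.07 and 1.06, and both sex-dependent lists and the periportal genes lie lowest, while their ticks lie nearer to 0.

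Separation of every carcinoma from every nodule was counted without a model. In the plain values, 1323 genes (9.31%) had no overlap between the 8 carcinomas and the 5 nodules, 534 of them (3.76%) higher and 789 (5.55%) lower in carcinomas. After each lesion's surrounding array was subtracted, 381 genes (2.68%) had none, 181 (1.27%) higher and 200 (1.41%) lower. In both versions and the same direction, 131 genes (0.921%) had none, 36 (0.253%) higher and 95 (0.668%) lower in carcinomas. Among the genes described above, Bcas1, Cdkn2b and Nr1i3 were of this kind on the higher side, and Cyp1a1, Zfp354a, Acsl1, Cyp2c7, Hsd17b6, Slc10a1, Prlr, Fgb, Il6r and Cd163 on the lower side.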

How the data were processed

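Per the labels' protocols, TRIzol and miRNeasy columns gave the RNA of the frozen samples, of which 250 ng went through the 3' IVT Express kit onto single-colour Affymetrix rat arrays. The authors deposited log2 probe set values, which were used unchanged. The methods of background correction and normalization are not given in the sources used here. Of 31042 probe sets, 20826 had 1 gene symbol in the platform annotation and were kept, 436 had several and 9780 none. The probe set with the highest mean over 26 frozen arrays stood for each of 14217 genes.

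Linear models with an intensity trend were fitted with limma 3.58.1 in R 4.3.3 (figures with Python 3.11.15), and tested on simulated data. The simulated control sets differed at random, not by lesion type, so the fits were not tested against a difference between the kinds of set. The plain fit held 8 carcinomas and 5 nodules (11 residual degrees of freedom). The control-subtracted fit added 6 surrounding arrays and the control set as a fixed term (11 residual degrees of freedom). A call is an adjusted p (Benjamini-Hochberg, all genes) under 0.05. Precision is limited by how many arrays there are. Lesions of 1 animal were counted as separate samples, so p-values measure the spread between lesions. The source-animal labels of the animal 21 samples disagree, so the animal was taken from title and control set.

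Animals pair samples by design, since animal 10 gave both lesion types. Deviations from the group means correlated at a median r of 0.00 over 13 pairs within an animal and -0.06 over 65 pairs between animals. The ranges were -0.36 to 0.40 within and -0.61 to 0.35 between animals, with 5 of 13 and 8 of 65 pairs above 0.1. The 4 pairs of a carcinoma with a nodule in animal 10 had a median r of 0.04 (-0.19 to 0.19).

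The 76 named genes were the 3 markers Bex1, Cyp2c11 and Slc7a11, up to 10 each way with the largest smaller of both differences (genes called in both fits first), 3 each way whose plain difference was lost after subtraction, and the called members or largest changes of each list. Other list members were named after their values were seen. Members and lists were chosen with earlier results of these data known. Alternatives were the summary of probe sets, dim genes, quantile normalization, the trend, the arrays and groups in the fit, animal blocks, 1 value per set and leaving out each array.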

Additional observations from a re-analysis of the deposited data

Results flagged for a closer look

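Among the named genes, 152 groups (carcinomas and nodules of each gene) were searched for an array whose gap to its nearest neighbour was large against the range of its group, by Dixon's test at 95%. It gave 16 flags, each for 1 array in 1 group and some for the same array, and chance alone gives about 1 in 20 groups.

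Carcinoma_bCat replicate 1, the array whose mutation label and beta-catenin target levels differ, accounted for 5 of them. It was the lowest carcinoma for Epdr1 (3.858, the next at 6.867), for Car3 (4.457, the next at 6.667) and for the liver pyruvate kinase Pklr (7.382, the next at 10.014). It was the highest carcinoma for Cd14 (11.065, the next at 9.245) and for the epithelial mucin Muc1 (6.952, the next at 4.783). Carcinoma replicate 2 was lowest for Slc25a4 (7.881, the next at 10.996) and for the immediate early gene Egr1 (6.983, the next at 7.795). Carcinoma_bCat replicate 4 was lowest for Gstp1 (12.171, the next at 13.703).

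Nodule replicate 5, the only nodule of animal 14, was lowest among nodules for Akr1b7 (7.184, the next at 10.433) and for Mki67 (4.427, the next at 6.393) and highest for Obp3 (11.992, the next at 5.529). Nodule replicate 4 was highest for the cholangiocyte genes Krt19 (10.596, the next at 7.853) and Muc1 (7.217, the next at 5.41) and lowest for Slc10a1 (11.389, the next at 11.693). Nodule replicate 2 was lowest for Epdr1 (4.017, the next at 4.905), and Nodule replicate 1 for Alb (15.045, the next at 15.092).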

How the results depend on the processing

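The plain calls, 1109 higher and 1889 lower, ranged over 867 to 1297 and 1318 to 2131 when 1 array was left out. They fell to 160 and 160 with animal as a fixed replicate block, to 485 and 584 with 1 value per control set, and to 635 and 896 with only the carcinomas that carry the mutation label, where fewer arrays enter. With animal as a random replicate block they were 1010 and 1719. The control-subtracted calls (0 higher, 4 lower) ranged over 0 to 2 and 1 to 6 with 1 array left out, and those in both fits (0 higher, 3 lower) over 0 to 2 and 1 to 5. The lower calls after subtraction and in both fits were 2 and 1 with the mean of all probe sets, 2 and 1 with quantile normalization, 0 and 0 with all 26 frozen arrays in the fit, 0 and 0 with 1 value per control set, 8 and 7 with the carcinoma groups as separate terms, and 13 and 13 with only the unlabelled carcinomas. With only the labelled carcinomas, 4 were higher and 17 lower after subtraction, and 3 higher and 15 lower in both fits. With the kind of control set in place of the set, chosen after seeing the data, both were 0. The calls between surrounding livers, 515, were 883 with the mean of all probe sets and 89 to 239 with 1 array left out, and those between the carcinoma labels, 0, ranged over 0 to 4. What moved the counts in each alternative was not tested. No called difference of a named gene changed sign in any alternative. Of the alternative values of plain differences, 134 lost and 41 gained a call, and of the subtracted ones 56 lost and 7 gained one. The fixed block changed no call among the 13 named genes listed with it in the report and ended the plain call of the others. The random block kept several of those calls, that of Bex1 among them. The number of animals and of surrounding arrays limits what the control-subtracted fit can show.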
